A study of Mus musculus with 6 samples.

Results

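The enzymes of haem synthesis, together with the mitochondrial porphyrin carrier Tmem14c, were examined in cells labelled as bone marrow erythroblasts of mice that express a mutant RPS19. The members are Alas1, Alas2, Alad, Uros, Urod, Cpox, Ppox, Fech and Tmem14c, and every probe set annotated to one of these symbols alone was taken. This gave 15 probe sets for 9 genes, out of 22626 probe sets and 12393 genes on the arrays. The study measured messenger RNA on 6 Affymetrix arrays, from 3 samples of mice carrying a transgene for RPS19 with the change R62W and from 3 wild type samples. All mice were of the FVB/N strain. The labels describe all cells as CD71-positive erythroblasts, the nucleated precursors of red cells, sorted from bone marrow, but genes of other blood cells also read high, as given below. CD71 is the transferrin receptor, and RPS19 is a protein of the small ribosomal subunit that is often mutated in Diamond-Blackfan anaemia, the disease named in the series title. The labels state neither the promoter of the transgene, nor the age of the mice, nor whether samples came from single animals. The p-values therefore speak of the spread among these 6 samples alone, and that spread may be technical, at least in part. The descriptions of the mutant samples carry different tags, whereas those of the wild type samples share one.

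Haem is built from glycine and succinyl-CoA along a pathway that starts in the mitochondrion, passes through the cytosol and ends in the mitochondrion. ALA synthase makes the first intermediate, Alad joins pairs of it into a pyrrole, Uros closes the porphyrin ring, Urod and Cpox trim its side chains, Ppox oxidises it and Fech inserts the iron. Erythroblasts use the erythroid ALA synthase Alas2, whose gene is a target of the transcription factor Gata1 and whose messenger RNA is under the control of iron. Other cells use Alas1. Tmem14c lies in the inner mitochondrial membrane and is needed to bring protoporphyrinogen IX to Ppox and Fech in the matrix.

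Promoter windows of 8 of the 9 genes were taken from RefSeq (GRCm38.p6, the reference strain C57BL/6J, with 250 bases before and 50 after a start site). The windows below are shown because Alas2 and Alas1 are the alternative first enzymes, Cpox held the most GATA words and Tmem14c is the member that passed the test between the genotypes. Capitals mark, on either strand, the GATA words AGATAA or AGATAG or TGATAA or TGATAG, and the 10-base palindrome of nuclear respiratory factor Nrf1, a known activator of Alas1, whose letters are those in capitals in the Alas1 window.
Alas2, chrX:150547167-150547466, plus strand: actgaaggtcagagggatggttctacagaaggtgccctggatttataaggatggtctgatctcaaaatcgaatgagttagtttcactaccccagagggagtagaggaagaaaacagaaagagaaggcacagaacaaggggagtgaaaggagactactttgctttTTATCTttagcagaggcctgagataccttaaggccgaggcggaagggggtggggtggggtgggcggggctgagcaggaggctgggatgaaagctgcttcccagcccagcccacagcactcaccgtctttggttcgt
Alas1, chr9:106247905-106248204, minus strand: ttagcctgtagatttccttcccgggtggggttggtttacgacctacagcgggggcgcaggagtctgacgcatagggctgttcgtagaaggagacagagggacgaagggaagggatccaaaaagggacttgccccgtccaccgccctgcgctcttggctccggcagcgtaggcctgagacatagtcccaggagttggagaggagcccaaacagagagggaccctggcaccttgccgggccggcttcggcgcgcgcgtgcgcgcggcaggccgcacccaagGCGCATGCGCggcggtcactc
Cpox, chr16:58669958-58670257, plus strand: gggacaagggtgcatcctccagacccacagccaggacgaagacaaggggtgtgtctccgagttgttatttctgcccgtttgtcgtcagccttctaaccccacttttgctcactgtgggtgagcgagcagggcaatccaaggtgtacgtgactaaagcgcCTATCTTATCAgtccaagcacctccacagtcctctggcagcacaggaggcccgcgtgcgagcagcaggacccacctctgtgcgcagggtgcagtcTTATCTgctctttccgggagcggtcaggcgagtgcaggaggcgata
Tmem14c, chr13:41016000-41016299, plus strand: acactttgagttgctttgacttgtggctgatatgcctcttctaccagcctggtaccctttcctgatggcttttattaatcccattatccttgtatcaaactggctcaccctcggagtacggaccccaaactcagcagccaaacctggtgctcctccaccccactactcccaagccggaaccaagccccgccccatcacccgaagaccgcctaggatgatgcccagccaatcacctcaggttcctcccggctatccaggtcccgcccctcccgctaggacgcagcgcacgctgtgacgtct

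A GATA word stood at position -86 of the Alas2 window. The Cpox window held 3, at positions -91, -86 and 5, the first pair of which overlap by a base. The Tmem14c and Alas1 windows held none, and 29.8% of all 32851 windows in the table held at least 1. The Nrf1 word stood at position 30 of the printed Alas1 window and occurred in 0.971% of all windows. In an overlapping Alas1 window of another start site, not printed, it stood at position -195. Among the windows not printed, those of Alad, Urod and Ppox had no match to any of these words, and 1 of the 2 Uros windows had 2 GATA words. A match is a description of letters and not a measured binding site.

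Mutant arrays differed more from each other than wild type arrays did. Over all probe sets, a pair of arrays differed with an SD of 0.34 to 0.50 within the mutant group and 0.14 to 0.19 within the wild type group (log2). Array medians ran from 5.34 to 5.40 (log2). Mutant replicate 3 had Xist at 5.78, against at least 11.38 elsewhere, and Eif2s3y of the Y chromosome at 8.34, against at most 2.45 elsewhere. It thus read as male and every other sample as female, so the mutant samples did not all come from the same mice. The distance between the 3' and 5' control probe sets of Gapdh, a measure of RNA or labelling quality, was 0.27 ± 0.032 in mutant and -0.07 ± 0.019 in wild type samples (log2, SD, n = 3 each, exact permutation p = 0.1, two-sided and the smallest that 3 against 3 can give). The same distance was 1.70 ± 0.16 in mutant and 1.31 ± 0.054 in wild type samples for actin (exact permutation p = 0.1, n = 3 each), and 1.75 ± 0.13 and 1.72 ± 0.055 for Tfrc (exact permutation p = 0.8, n = 3 each), where the groups overlapped. Defining markers of erythroid cells were high on all arrays, with Klf1 at 10.74 to 11.68 in mutant and 11.54 to 11.74 in wild type samples. The neutrophil precursor gene Mpo was also high, at 12.38 to 13.54 in mutant and 13.08 to 13.17 in wild type samples. The Hba-a1 probe set with a single symbol read 2.87 to 3.12 in mutant and 3.06 to 3.27 in wild type samples, below the array medians, and probe sets that name several globin genes were not used here.

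The Tmem14c probe set read higher in the mutant and passed over probe sets but not over genes, and no probe set of the enzymes passed. Of the 15 probe sets, 7 had a higher and 8 a lower mutant mean. A limma fit over all probe sets called 1 of the 15, that of Tmem14c, at an adjusted p under 0.05, against 2.33% of all probe sets, or 0.941% when only rises are counted. With 1 probe set per gene, the one with the highest mean, 0 of the 9 genes passed by limma, against 0.331% of all genes. At an unadjusted p under 0.05 there were 3 of the 15 probe sets, those of Tmem14c, Alad and 1 of Ppox, against 19.1% of all. The median log2 difference, mutant minus wild type, was -0.07 over the 15 and -0.01 over all probe sets. In bulk samples such as these, fewer cells of a type and less RNA per cell cannot be told apart.

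**Figure D1:**
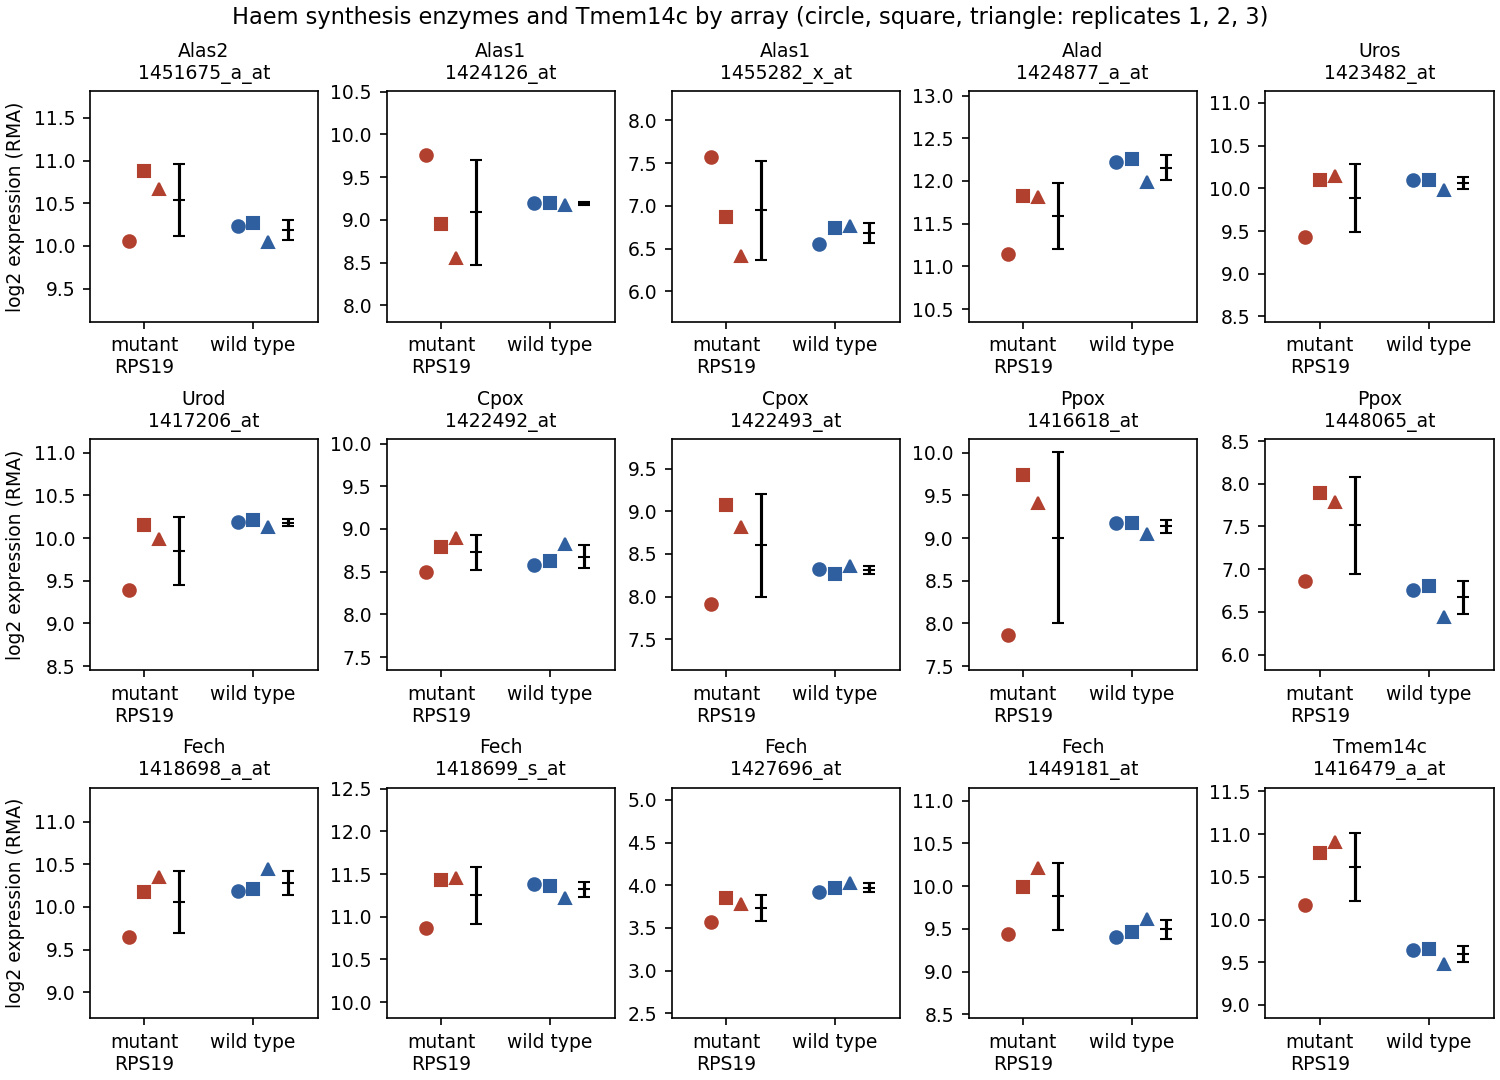
Log2 expression (vertical axis, RMA values; each panel spans the same range) of the 15 probe sets by array, with mutant RPS19 arrays on the left and wild type arrays on the right. Symbols mark replicates and bars the mean ± SD of 3 arrays. The 3 mutant arrays lie above all wild type arrays for Tmem14c and for Ppox 1448065_at, and below them for Alad and Fech 1427696_at.

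Alas2 was measured by 1 probe set, 1451675_a_at, and its highest values were on mutant arrays. It read 10.06, 10.88 and 10.67 on mutant arrays 1 to 3, against 10.24, 10.27 and 10.05 on wild type arrays (log2). Mutant arrays 2 and 3 thus lay above all wild type arrays, and mutant array 1 lay among them, so the groups overlapped. The difference was 0.35 (95% interval -0.13 to 0.83, adjusted p = 0.41), which does not pass the test and leaves room for a rise of up to 1.78-fold. Without mutant replicate 1 it was 0.59 (adjusted p = 0.022). Alas2 lies on the X chromosome, and of the mutant arrays it was array 3 that read low for Xist.

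Alas1, the ALA synthase of other tissues, ran the other way on the same arrays. Probe set 1424126_at read 9.76, 8.95 and 8.55 on the mutant arrays, against 9.20, 9.20 and 9.17 on the wild type arrays. Mutant array 1 was the highest of all 6 and mutant array 3 the lowest, so the mutant values enclosed the wild type ones. The difference of -0.10 (95% interval -0.74 to 0.54, adjusted p = 0.89) therefore averages arrays that moved in opposite directions. Probe set 1455282_x_at gave the same order of the mutant arrays, with 7.57, 6.87 and 6.42, against 6.55, 6.74 and 6.76 in wild type samples. Its suffix marks probes that can also bind other transcripts, and its difference was 0.26 (adjusted p = 0.65). Without mutant replicate 3 the sign for 1424126_at turned to 0.17, and without mutant replicate 1 that for 1455282_x_at turned to -0.04.

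Alad, which makes porphobilinogen in the cytosol, had the lowest difference of the 15 probe sets. It read 11.15, 11.82 and 11.81 on the mutant arrays, against 12.22, 12.25 and 11.99 on the wild type arrays. All mutant values lay below all wild type values, a separation seen for 4 of the 15 probe sets and for 26.1% of all probe sets. The difference was -0.56 (95% interval -1.01 to -0.11, unadjusted p = 0.022) but the adjusted p was 0.18, so it does not pass. It ran from -0.67 to -0.34 when each array was left out in turn.

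Uros and Urod, the next enzymes measured, were lowest on mutant array 1. Uros read 9.43, 10.09 and 10.14 in mutant and 10.10, 10.10 and 9.98 in wild type samples. Urod read 9.39, 10.15 and 9.99 in mutant and 10.19, 10.21 and 10.13 in wild type samples. For both genes mutant array 1 stood below every other array and at least 1 other mutant value lay within or above the wild type range. For Urod, mutant array 3 also lay below every wild type array. The differences were -0.17 (95% interval -0.62 to 0.28, adjusted p = 0.68) for Uros and -0.33 (95% interval -0.77 to 0.12, adjusted p = 0.41) for Urod. Without mutant replicate 1 they were 0.06 and -0.10, and that of Uros thereby changed sign.

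Cpox, which makes protoporphyrinogen IX between the mitochondrial membranes, gave different pictures with its probe sets. Probe set 1422492_at read 8.50, 8.78 and 8.90 in mutant and 8.57, 8.62 and 8.83 in wild type samples, a difference of 0.05 (95% interval -0.26 to 0.36, adjusted p = 0.88) with overlapping groups. It took the sign of -0.03 without mutant replicate 3. Probe set 1422493_at read 7.91, 9.07 and 8.82 in mutant and 8.32, 8.27 and 8.36 in wild type samples. There mutant array 1 was the lowest of all arrays and mutant arrays 2 and 3 the highest, and the difference was 0.28 (95% interval -0.35 to 0.92, adjusted p = 0.63). Without mutant replicate 1 it was 0.63 (adjusted p = 0.015).

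Ppox, which oxidises protoporphyrinogen IX, had the widest spread of any member. Probe set 1416618_at read 7.87, 9.74 and 9.41 in mutant and 9.18, 9.18 and 9.05 in wild type samples. Mutant array 1 lay far below the wild type arrays and the other mutant arrays above them, which gave a mutant SD of 1.0 against 0.073 in wild type and a difference of -0.13 (adjusted p = 0.91). That sign turned to 0.44 (adjusted p = 0.063) without mutant replicate 1. Probe set 1448065_at read 6.86, 7.89 and 7.78 in mutant and 6.76, 6.80 and 6.44 in wild type samples. All mutant values lay above all wild type values, although that of mutant array 1 did so narrowly, and the difference was 0.84 (95% interval 0.21 to 1.47, unadjusted p = 0.015, adjusted p = 0.15). Without mutant replicate 1 it was 1.17 (adjusted p = 0.0042).

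Fech, which inserts iron into protoporphyrin IX, was measured by 4 probe sets, and their differences had both signs. The brightest, 1418699_s_at, read 10.87, 11.44 and 11.46 in mutant and 11.38, 11.37 and 11.22 in wild type samples. Its difference was -0.07 (95% interval -0.46 to 0.33, adjusted p = 0.88), with mutant array 1 the lowest and the other mutant arrays the highest of the 6. The sign turned to 0.13 without mutant replicate 1 and to 0.03 when quantile normalisation was repeated without controls. Probe set 1449181_at read 9.44, 9.99 and 10.21 in mutant and 9.40, 9.47 and 9.61 in wild type samples, a difference of 0.39 (adjusted p = 0.33) with overlap through mutant array 1. Without that array it was 0.61 (adjusted p = 0.019). Probe set 1418698_a_at read 9.65, 10.17 and 10.35 in mutant and 10.18, 10.21 and 10.44 in wild type samples, a difference of -0.22 (adjusted p = 0.58). The last, 1427696_at, read 3.57 to 3.85 in mutant and 3.93 to 4.02 in wild type samples, below the array medians, and its difference of -0.24 (adjusted p = 0.28) is that of a dim probe set.

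Tmem14c, measured by probe set 1416479_a_at, rose in the mutant. It read 10.17, 10.78 and 10.91 on the mutant arrays, against 9.65, 9.66 and 9.48 on the wild type arrays. Every mutant array lay above every wild type array, and mutant array 1 was the lowest of the mutants here too. The means were 10.62 ± 0.39 in mutant and 9.60 ± 0.099 in wild type samples (log2, SD, n = 3 each). The mutant was thus 1.02 ± 0.19 (SE) higher, or 2.03-fold (95% interval 1.49 to 2.77). The adjusted p was 0.044 over all probe sets and 0.071 over genes, so the call rests on which features are tested together. When each array was left out in turn the difference ran from 0.87 to 1.25 and the adjusted p from 0.0019 to 0.20. It passed without mutant replicate 1. It missed the threshold when any other single array was left out, whether wild type replicate 1, 2 or 3 or mutant replicate 2 or 3.

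**Figure D2:**
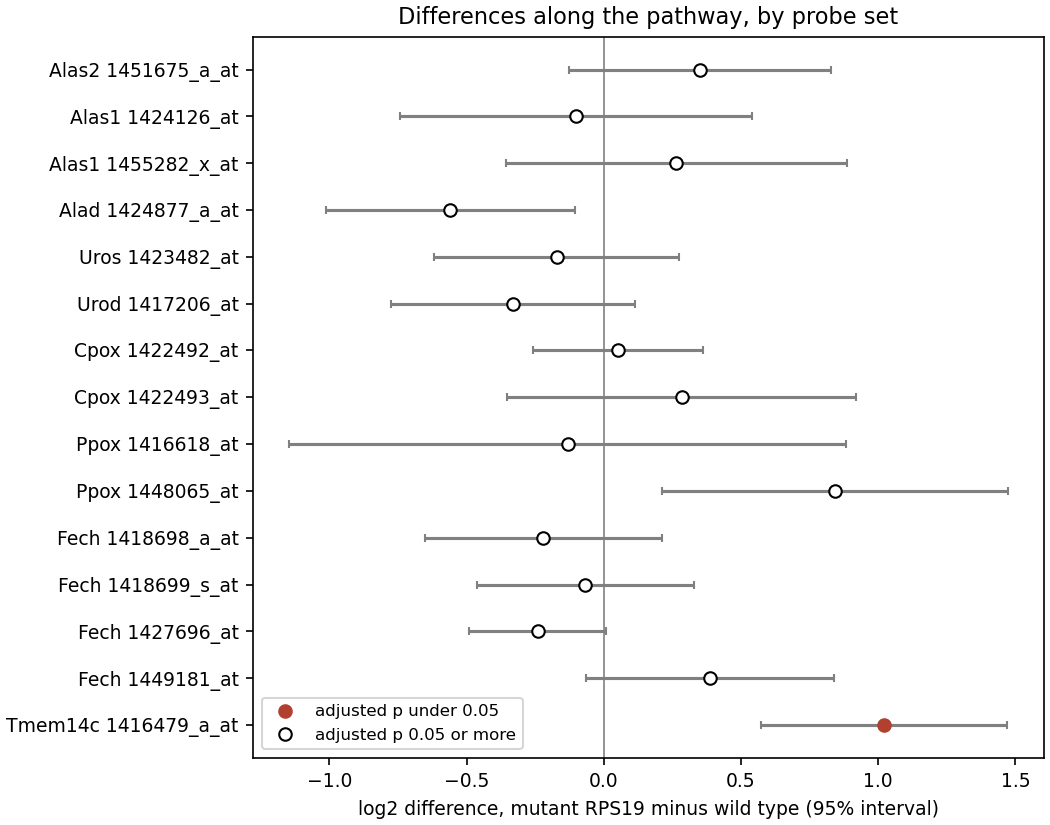
Log2 difference, mutant RPS19 minus wild type (horizontal axis), of the 15 probe sets in pathway order from top to bottom, with the 95% interval from limma. The filled point, Tmem14c at 1.02, is the probe set with an adjusted p under 0.05, and the intervals of Ppox 1448065_at and Alad also leave out 0.

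Along the pathway mutant array 1 stood apart from mutant arrays 2 and 3. It was the lowest mutant array for 13 of the 15 probe sets, against 42.1% of all probe sets, and the exceptions were the 2 probe sets of Alas1. Set against the wild type mean, the median of the 15 was -0.40 for mutant array 1, 0.11 for the second and 0.14 for the third, while the medians over all probe sets were -0.04, -0.02 and 0.01. On mutant array 1 the lowest values were -1.27 for Ppox 1416618_at and -1.0 for Alad, and the highest were those of Alas1, 0.88 for 1455282_x_at and 0.57 for 1424126_at, next to Tmem14c at 0.57. On mutant arrays 2 and 3 Tmem14c was at 1.18 and 1.31 and Ppox 1448065_at at 1.23 and 1.12. The mutant SD exceeded the wild type SD for all 15 probe sets, as it did for 76.7% of all. Without mutant replicate 1, which was singled out after seeing the data, 5 of the 15 were called, against 11.2% of all probe sets. All 5 were higher in the mutant, whereas the 11.2% counts both directions, and the share of rises alone was not computed for this fit. They were Tmem14c at 1.25, Ppox 1448065_at at 1.17, Cpox 1422493_at at 0.63, Fech 1449181_at at 0.61 and Alas2 at 0.59, and other probe sets of Ppox, Cpox and Fech were not among them.

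**Figure D3:**
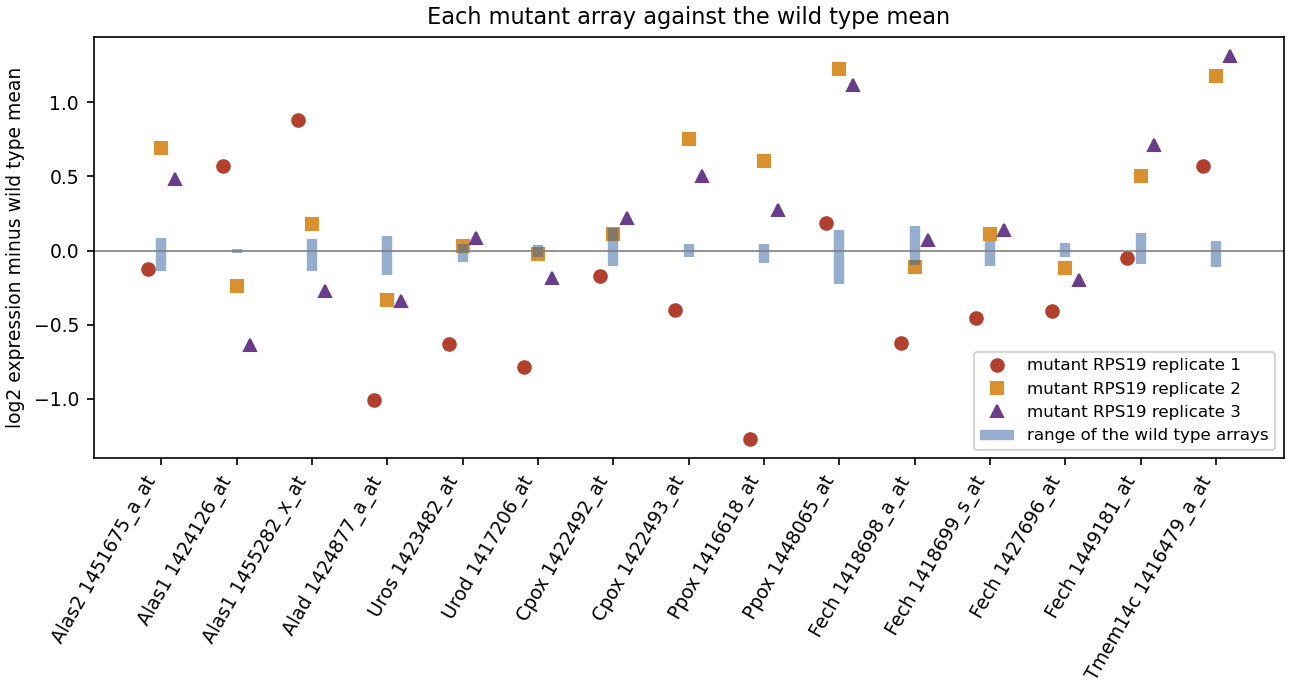
Log2 expression on each mutant RPS19 array minus the wild type mean (vertical axis) for the 15 probe sets in pathway order. Points are single arrays and blue bars the range of the 3 wild type arrays. Mutant array 1 lies lowest except for Alas1, and all 3 mutant arrays lie above the bar for Tmem14c.

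Markers of cell types moved with the same arrays. The mean log2 level of 15 of 18 erythroid markers was 9.06, 9.81 and 9.89 on mutant arrays 1 to 3 and 9.64 to 9.74 on wild type arrays. That of 8 of 8 neutrophil genes was 11.50, 10.16 and 9.63 in mutant samples and 10.72 to 10.85 in wild type samples. Mutant array 1 was thus the lowest of all for the erythroid list and the highest for the neutrophil list, as it was for the mean of 4 of 5 mast cell and basophil genes (7.85, against 4.84 to 5.96 for mutant arrays 2 and 3 and 6.30 to 6.53 in wild type samples) and for the mean of 6 of 6 early progenitor genes (8.10, against 7.23 to 7.49 and 7.63 to 7.76). Gene by gene, with the brightest probe set, it was the lowest of the 6 arrays for 13 of 15 erythroid genes, against 28.4% of all probe sets. It was the highest for 8 of 8 neutrophil genes, 4 of 4 mast cell and basophil genes and 4 of 6 early progenitor genes. The share of all probe sets for which it was the highest was not computed. The progenitor exceptions, named after their values were seen, were Kit, at 7.89 against 7.72 to 7.99 in wild type samples, and Myc, at 8.38 against 8.66 to 8.80. B cell genes, 6 of 7 measured, read 5.77, 7.58 and 6.45 in mutant samples and 5.69 to 5.73 in wild type samples. The part of these cell types in the values of the haem genes was not tested.

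The mean of the late erythroblast list was higher on every mutant array, but not every gene of it was. That mean, over the 4 measured of 10 list names, was 9.30, 9.86 and 9.61 on mutant arrays 1 to 3 and 8.83 to 8.88 on the wild type arrays. Of their 8 probe sets 4 passed, all higher in the mutant, against 2.33% of all probe sets, or 0.941% when only rises are counted. They were 3 of Bpgm, which measure 1 gene, and 1 of Tent5c. In the gene fit by limma 0 of the 4 genes passed, against 0.331% of all genes. At an unadjusted p under 0.05 there were 3 of the 4, against 19.1% of all probe sets. Bpgm, which makes the red cell metabolite bisphosphoglycerate, rose by 1.15 ± 0.18 (log2, SE, adjusted p = 0.028 over probe sets and 0.053 over genes). Tent5c, a poly(A) polymerase, rose by 1.08 ± 0.16 (adjusted p = 0.026 over probe sets and 0.053 over genes). Xpo7, an exportin, differed by 0.68 ± 0.16 with its brightest probe set (adjusted p = 0.073) and by 0.36 ± 0.19 with the other (adjusted p = 0.36). Mxi1, a Max-binding repressor, differed by 0.02 ± 0.11 with its brightest probe set (adjusted p = 0.94) and by -0.32 ± 0.12 with the other (adjusted p = 0.20), so that the list mean is carried by the other genes. Xpo7 and Mxi1 were named after their values were seen. Tfrc, the gene of the sort marker, read 11.45 to 11.99 in mutant and 12.13 to 12.15 in wild type samples with its brightest probe set and differed by -0.34 ± 0.15 (adjusted p = 0.29). A dimmer Tfrc probe set 1422966_a_at fell by 1.10 ± 0.097 (adjusted p = 0.0039). Of the erythroid list's 21 probe sets 2 passed, against 2.33% of all probe sets. They were 1422966_a_at of Tfrc and 1431743_a_at of the anion exchanger Slc4a1, which fell by 1.74 ± 0.27 (adjusted p = 0.028). The far brighter Slc4a1 probe sets 1416464_at and 1434502_x_at differed by -0.03 ± 0.19 (adjusted p = 0.96) and 0.09 ± 0.12 (adjusted p = 0.74). Vwf, a megakaryocyte and endothelial gene, was the marker that passed in both fits, with a rise of 1.48 ± 0.19 (adjusted p = 0.015 over probe sets and 0.036 over genes). The mean of the megakaryocyte list, 5 of 6 measured, read 6.05 to 6.73 in mutant and 5.62 to 5.68 in wild type samples. Vwf was the 1 gene of the 5 with all mutant arrays above all wild type arrays, and 26.1% of all probe sets held the groups apart in either direction. Pf4, named after its values were seen, read 9.02, 7.61 and 7.63 in mutant and 7.63 to 7.66 in wild type samples. The lists of monocyte and macrophage genes (7 measured of 8 list names) and T and NK cell genes (5 of 6) read 5.77 to 6.36 and 4.94 to 5.34 in mutant samples, and 6.39 to 6.47 and 5.19 to 5.30 in wild type samples.

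**Figure D4:**
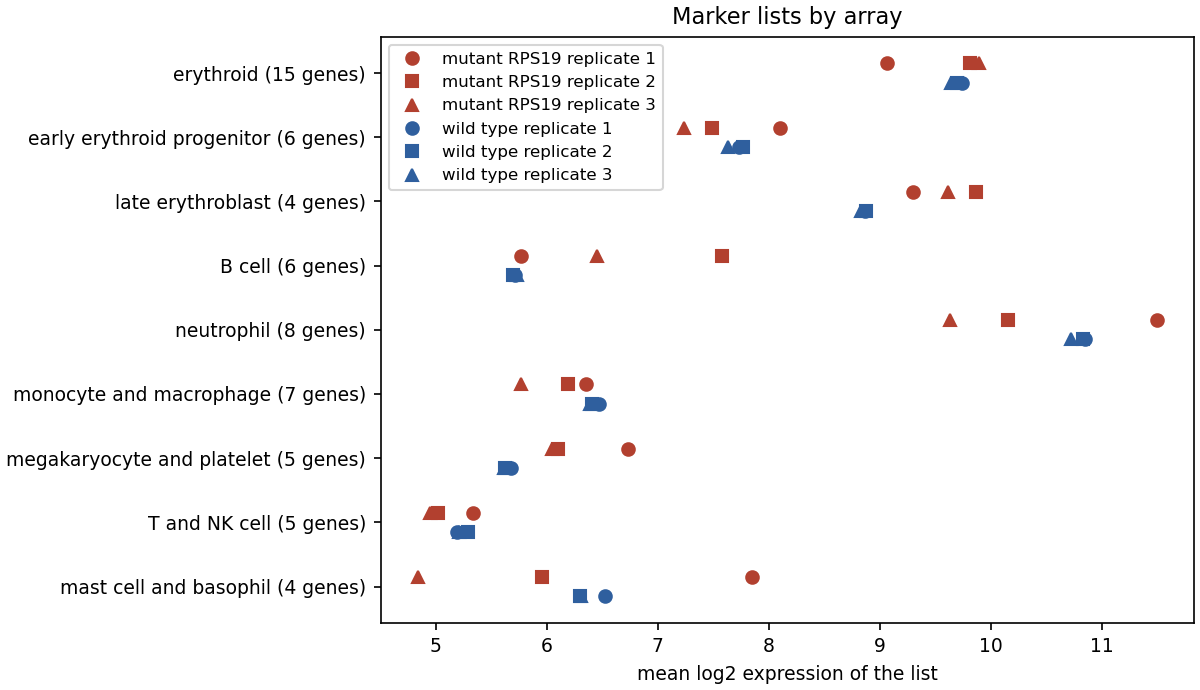
Mean log2 expression (horizontal axis) of each marker list by array, with mutant RPS19 arrays above wild type arrays in each row. Mutant array 1 is the lowest array for the erythroid list (9.06) and the highest for the neutrophil list (11.50), and all mutant arrays exceed the wild type arrays for the mean of the late erythroblast list, though not for each of its genes.

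The probe sets of one gene were next set against each other on the same array, a comparison chosen after seeing the data, in which a difference in overall array level cancels. Each further probe set of a gene minus the brightest one was fitted with limma over all 7987 such pairs of 4956 genes. The members gave 6 pairs from Alas1, Cpox, Ppox and Fech. Ppox 1448065_at minus 1416618_at was -1.01, -1.85 and -1.62 on the mutant arrays, against -2.42, -2.37 and -2.61 on the wild type arrays. The groups did not overlap, and the shift of 0.97 ± 0.21 (SE) passed the test (adjusted p = 0.030). This was 1 of 6 member pairs called, against 10.1% of all pairs. The pair lost its call when wild type replicate 1, 2 or 3 was left out, at 0.90 to 1.02 (adjusted p of 0.11 in each case).

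The pairs of Fech and Alas1 moved less and did not pass. Fech 1449181_at minus 1418699_s_at was -1.43, -1.44 and -1.25 in mutant and -1.98, -1.90 and -1.60 in wild type samples, a shift of 0.45 ± 0.13 (adjusted p = 0.069). Alas1 1455282_x_at minus 1424126_at was -2.19, -2.08 and -2.14 in mutant and -2.65, -2.45 and -2.41 in wild type samples, a shift of 0.37 ± 0.11 (adjusted p = 0.076). Both pairs held the groups apart, so that 3 of 6 member pairs did not overlap, against 33.9% of all pairs. The Cpox pair shifted by 0.23 ± 0.21 (adjusted p = 0.51) and the other Fech pairs by -0.15 ± 0.14 (adjusted p = 0.52) and -0.17 ± 0.14 (adjusted p = 0.45), all with overlap. The 3' minus 5' values of Gapdh and actin also held these groups apart, that of Tfrc did not, and their part in these shifts was not tested. The labels do not state where in the transcripts the probes lie.

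**Figure D5:**
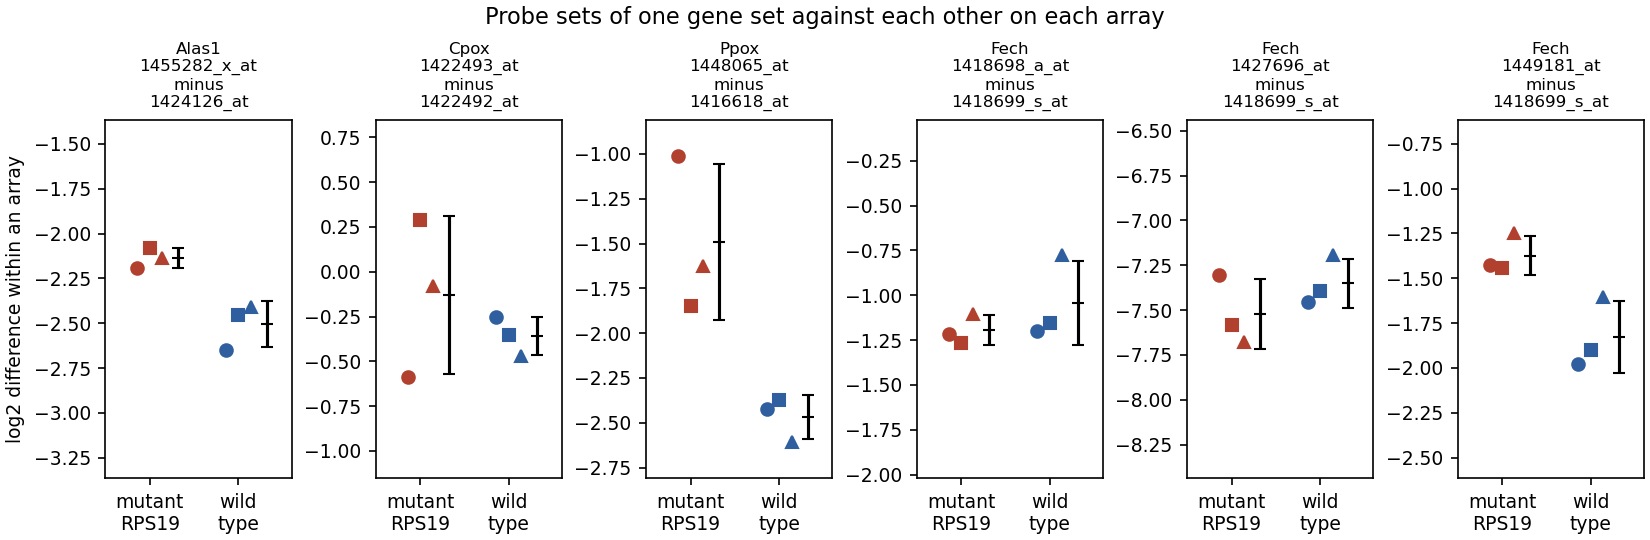
Log2 difference within an array (vertical axis) between a further probe set of a gene and the gene's brightest probe set, for the 6 member pairs, with mutant RPS19 arrays left of wild type arrays and bars for mean ± SD of 3 arrays. Groups are apart for Alas1, Ppox and Fech 1449181_at, and overlap for Cpox and the other Fech pairs.

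Genes that supply, carry or regulate the pathway were taken as a list of 42, of which 33 genes were measured by 61 probe sets. Over probe sets 2 passed, both higher in the mutant (2.33% of all probe sets passed, or 0.941% when only rises are counted). In the gene fit by limma 0 of the 33 genes passed (0.331% of all genes). At an unadjusted p under 0.05 there were 7 of the 33, near the share of 19.1% of all probe sets. With the replicate number as a block, without wild type replicate 1, 2 or 3, or without mutant replicate 2, 0 partner probe sets passed by limma. Without mutant replicate 3 the number was 3. Without mutant replicate 1 it was 12, where 11.2% of all probe sets passed. The list's median log2 difference was 0.01, and that of all probe sets -0.01. Slc25a28, the iron carrier mitoferrin-2 of the inner mitochondrial membrane, read 7.90, 7.90 and 7.75 in mutant and 7.21, 7.19 and 6.97 in wild type samples, a rise of 0.73 ± 0.11 (adjusted p = 0.025, or 0.052 over genes). Slc25a39, a mitochondrial carrier of glutathione, passed with probe set 1456176_x_at, which read 10.09, 10.09 and 10.18 in mutant and 9.66, 9.65 and 9.62 in wild type samples (0.48 ± 0.087, adjusted p = 0.040). Its brightest probe set, 1439410_x_at, differed by 0.30 ± 0.098 (adjusted p = 0.16). The last, 1453111_a_at, differed by 0.26 ± 0.16 (adjusted p = 0.45) with overlapping groups. The suffix of the called and the brightest Slc25a39 probe sets marks probes that can also bind other transcripts. The called probe sets of both genes read nearly alike on the 3 mutant arrays, unlike most members, whereas the last Slc25a39 probe set was low on mutant array 1.

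Within each class, the genes with the lowest p for their brightest probe set are given next. Among the other carriers, Abcb8 differed by -0.50 ± 0.13 (adjusted p = 0.098). Abcb10, a transporter of the inner mitochondrial membrane needed for haem synthesis in red cell precursors and chosen after its values were seen, read 8.36, 9.62 and 9.50 in mutant and 10.31, 10.19 and 9.96 in wild type samples (-0.99 ± 0.31, adjusted p = 0.15). For substrate supply, the succinyl-CoA ligase subunit Suclg2 differed by -0.27 ± 0.18 (adjusted p = 0.45) and the glycine carrier Slc25a38 by -0.37 ± 0.26 (adjusted p = 0.50). Slc25a38 was low on mutant array 1, at 8.13, and read 9.09 and 9.14 on mutant arrays 2 and 3, with 9.02 to 9.25 in wild type samples. Of iron-sulphur cluster genes, the scaffold Iscu differed by 0.39 ± 0.10 (adjusted p = 0.10) with all mutant values above, and the co-chaperone Hscb by 0.17 ± 0.13 (adjusted p = 0.53). Of regulators, Nrf1 differed by 0.68 ± 0.24 with its brightest probe set (adjusted p = 0.19). That probe set read 6.90, 7.84 and 7.77 in mutant and 6.71 to 6.91 in wild type samples. The other Nrf1 probe sets differed by 0.11 ± 0.13 for 1420978_at (adjusted p = 0.72) and -0.11 ± 0.19 for 1424787_a_at (adjusted p = 0.80). Klf1, an erythroid transcription factor, differed by -0.39 ± 0.22 (adjusted p = 0.40). Dimmer probe sets of other genes, named after their values were seen, had lower unadjusted p in these classes but did not pass either. They were 1449311_at of the haem-binding repressor Bach1 at 0.55 ± 0.12 (adjusted p = 0.060), 1421900_at of the haem-regulated kinase Eif2ak1 at -0.80 ± 0.19 (adjusted p = 0.074) and 1426423_at of the serine hydroxymethyltransferase Shmt2 at -0.59 ± 0.16 (adjusted p = 0.11). The brightest probe sets of these genes differed by -0.001 for Bach1, 0.03 for Eif2ak1 and 0.01 for Shmt2.

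Genes whose values followed those of Alas2 or Tmem14c most closely were found by the root mean square difference over the 6 arrays after centring each gene on its mean. For Alas2 these were the replication kinase gene Cdc7 at 0.039, Fnbp4 at 0.047 and Tcf19 at 0.048. Cdc7 read 8.24, 9.03 and 8.82 in mutant and 8.44, 8.41 and 8.30 in wild type samples, the same order of mutant arrays as Alas2. For Tmem14c they were Pmm1, a phosphomannomutase, at 0.089, the cohesin subunit gene Stag3 at 0.096 and the glutathione transferase gene Gstt1 at 0.099. Gstt1 read 5.93, 6.43 and 6.61 in mutant and 5.32, 5.42 and 5.43 in wild type samples, with all mutant values above, as the choice by likeness to Tmem14c makes likely. Pmm1 read 6.69, 7.36 and 7.50 in mutant and 6.45, 6.33 and 6.07 in wild type samples. These values share 6 arrays and describe likeness only.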

How the data were processed

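RNA of cells labelled as CD71-positive bone marrow erythroblasts was hybridised to 1 Affymetrix array per sample, with 3 mutant RPS19 and 3 wild type samples grouped by the genotype in the labels. The authors deposited log2 values. GCOS and RMA in Affymetrix Expression Console are named in the submitters' processing notes, and RMA corrects background, quantile normalises across arrays and summarises probe sets. Which arrays were normalised together was not given in the sources used here. RMA shrinks differences of dim probe sets, and levels of different probe sets are not comparable.

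Of 22690 probe sets, 64 controls were left out. GEO's platform annotation, which can be old, gave 1 symbol to 20380 of the remaining 22626, several to 691 and none to 1555. The genotypes were tested against each other in R 4.3.3 by limma 3.58.1 (two-sided lmFit and eBayes without covariates), with Benjamini-Hochberg adjustment over all 22626 probe sets, or over 12393 genes represented by their brightest probe set, at a threshold of 0.05. Members and lists were chosen with earlier results of these data known. Named genes are the members, list genes called in either fit, the 2 partners of each class with the lowest p by their brightest probe set, 3 nearest genes to Alas2 and Tmem14c, and Tfrc. The fit was tested on simulated data. Python 3.11.15 with pandas 2.3.3, scipy 1.17.1 and matplotlib 3.10.9 was used. The number of arrays limits the precision. Alternatives covered the variance prior, array weights, normalisation, dim probe sets, the replicate block, a plain t statistic, the threshold and leaving out arrays.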

Additional observations from a re-analysis of the deposited data

Results flagged for a closer look

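Control probe sets outside the comparisons of genes read higher on the mutant arrays than on the wild type arrays. Bacterial transcripts spiked in before labelling read 12.83 ± 1.08 in mutant and 8.75 ± 0.016 in wild type samples (mean log2, SD, n = 3 each), a difference of 4.07 (exact permutation p = 0.1, the smallest possible with 3 against 3). Hybridisation controls, added after labelling, read 10.47 ± 0.22 in mutant and 9.36 ± 0.066 in wild type samples, a difference of 1.11 (exact permutation p = 0.1). Control probe sets take part in quantile normalisation. When it was repeated on the deposited values without controls, Tmem14c differed by 1.07 (limma, adjusted p = 0.046). The deposited values had already been normalised and summarised, so the repeat cannot remove an earlier effect of the controls on them. The part of these control differences in the values of Tmem14c was not tested. No group had enough arrays for a test of single outlying arrays.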

How the results depend on the processing

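The sign of Tmem14c held under all alternatives, with 0.87 to 1.25 when single arrays were left out, but its call did not. It was 1.02 with adjusted p = 0.089 with the replicate number as a block and 1.02 with adjusted p = 0.17 with a plain t statistic. The number of member probe sets called was 3 with array weights (Tmem14c, Ppox 1448065_at and Fech 1449181_at), 0 with the replicate block, 0 with the plain t statistic and 0 to 5 when single arrays were left out. Partner probe sets called numbered 12 with array weights, where 2667 of all 22626 probe sets were called. They numbered 0 with the block, 1 with the plain t statistic, 5 at an adjusted p under 0.10 and 0 to 12 without single arrays. Member genes called numbered 0 to 2 without single arrays. Member pairs called numbered 2 with array weights, 0 with the plain t statistic and 0 to 1 without single arrays. The cause of these changes was not tested, beyond the fewer arrays where arrays were left out. For the 15 probe sets, 187 of 209 alternative values kept sign and call, and 6 probe sets changed sign. Only 1 of the 15, Tmem14c, was called in the main fit, so for the others keeping the call meant staying uncalled. The 7 alternative values that lost a call were all of Tmem14c. Ppox 1416618_at turned to 0.26 with array weights, and 1 Fech probe set, 1418699_s_at, to 0.020 with array weights and 0.029 with repeated quantile normalisation. Without single arrays Alas1 1424126_at ran from -0.44 to 0.17, Alas1 1455282_x_at from -0.044 to 0.53, Uros from -0.30 to 0.058, Cpox 1422492_at from -0.032 to 0.17, Ppox 1416618_at from -0.50 to 0.44 and Fech 1418699_s_at from -0.17 to 0.13. Fech 1427696_at was too dim for the fit on bright probe sets.

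Over the whole array 528 probe sets were called, and 2667 with array weights, 112 with the block, 81 with the plain t statistic, 1386 at an adjusted p under 0.10 and 36 to 2544 without single arrays. Of genes 41 were called, and 62 with repeated quantile normalisation, 7 with the block and 0 to 1182 without single arrays. Of pairs 807 were called, and 1339 with array weights, 413 with the block, 218 with the plain t statistic and 78 to 1180 without single arrays. Deviations of same-numbered arrays from their group means correlated at 0.028 to 0.055, so the numbers were not taken as pairing, although each array correlated best with its own number, a hint from the data and not from the design.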
